A study of Mus musculus with 4 samples.

Results

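The interleukin 1 system was described here by 5 genes: the agonist ligands Il1a and Il1b, the antagonist Il1rn, the signalling receptor Il1r1 and the decoy receptor Il1r2. Members were the probe sets whose platform annotation gave exactly 1 gene symbol, equal to one of these names. Each gene had 1 such probe set, so there were 5 of 13069 probe sets, standing for 5 of 6137 named genes. Total RNA of peritoneal exudate cells was hybridised to Affymetrix arrays, with 1 array per genotype on either of 2 array designs, here A and B, whose probe sets differ. One set of cells came from mice lacking C/EBPε (C/EBPe-/-), the C/EBP family member that late granulocyte maturation needs and that Cebpe encodes, and the wild-type set from C/EBPe+/+ mice, both of a 129/SvEv x NIH Black Swiss background and aged 6 to 8 weeks. All mice, 4 of each genotype, had received 2 ml of 4% thioglycollate broth, a sterile irritant, into the peritoneal cavity, and cells were lavaged 24 h later. The labels' account of how cells were combined breaks off, so whether an array held pooled mice is not known here, and they do not describe the mutant allele. By the labels, neutrophils made up some 60%, monocytes 30% and lymphocytes 7 to 10% of cells on cytospins in either genotype.

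In textbook terms, interleukin 1 alpha and beta bind the receptor encoded by Il1r1, which then recruits an accessory chain, Il1rap, and signals through MyD88 to NF-kappa-B. Il1rn encodes a ligand of the same receptor that does not recruit the accessory chain, so it occupies the receptor without a signal. Il1r2 encodes a receptor that binds interleukin 1 but lacks the signalling part inside the cell, and is known as a decoy, carried above all by neutrophils and some macrophages. Activated monocytes, macrophages and neutrophils are known sources of both interleukin 1 beta and the antagonist.

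With 1 array per genotype and array type, no test was possible, and each difference below describes 2 arrays with no replicate check. The number of arrays limits the precision. No probe set carried the single symbol Cebpe, so the labels could not be checked by the deleted gene. On type B the deficient array is called so in its title only, its RNA source being described without the deficiency, which bears on Il1a and Il1r2. Intensities are on a linear scale and can fall below 0. The signal floor, the median of both arrays of a type, lay at 1036.5 for type A and 690.2 for type B. Where both readings exceeded it a log2 ratio of deficient to wild-type signal was taken, and where only 1 did, a bound against the floor. The members were chosen by a rule written with their deficient-over-wild-type ratios in these same arrays known, so these values are given as a description.

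Of the 5 members, 3 were above the floor in both genotypes, Il1b, Il1rn and Il1r2, and each of these had less signal in the cells lacking C/EBPε, by 2.16-fold, 2.53-fold and 5.29-fold. The agonist ligand, its antagonist and the decoy receptor were thus all lower. The other 2, Il1a and Il1r1, lay at or below the floor in both genotypes and gave no ratio. Over all measured probe sets, a ratio or bound of at least 2-fold lower was found for 4.05% on A and 4.99% on B, and of at least 2-fold higher for 3.30% on A and 6.53% on B. The median log2 ratio over all probe sets with a ratio was 0.02 on A and 0.02 on B.

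**Figure D1:**
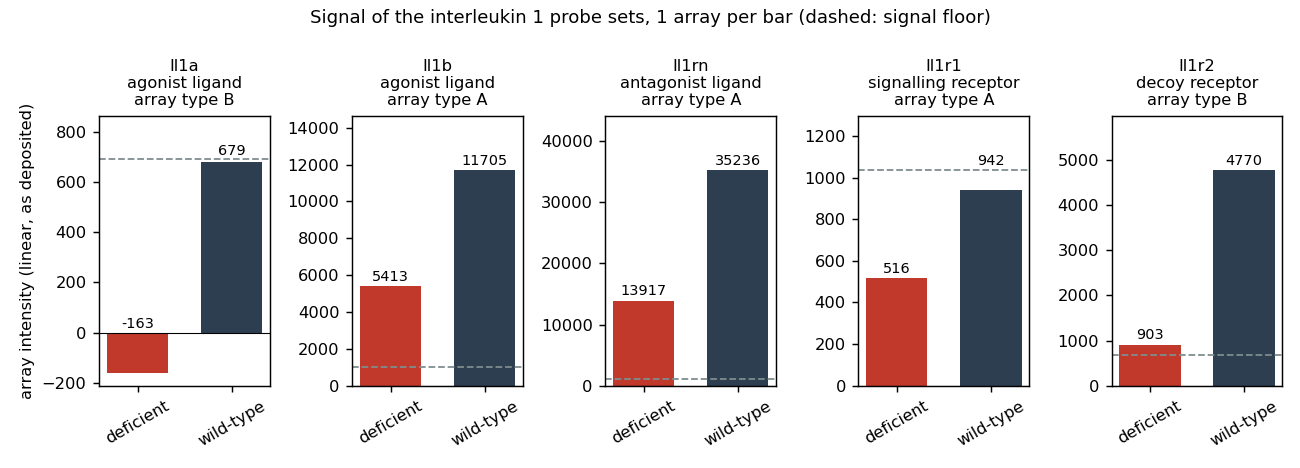
Deposited array intensity (linear scale) of the 5 interleukin 1 probe sets, 1 bar per array, with Cebpe-deficient cells left of wild-type cells and the signal floor of the array type as a dashed line. Il1b, Il1rn and Il1r2 stand above the floor in both genotypes and lower in deficient cells (5413 against 11705 for Il1b), while Il1a and Il1r1 do not reach it.

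Il1b, the interleukin 1 gene that monocytes and neutrophils induce on activation, read 5413 in deficient cells and 11705 in wild-type cells on A. The deficient reading was 46.2% of the wild-type one, a log2 ratio of -1.11. Both readings were well clear of the floor, at 5.22 times it in deficient cells and 11.3 times it in wild-type cells. Of 2949 probe sets with a ratio on A, 66 had a lower ratio. Scaled to the bacterial hybridisation controls, Il1b was under 2-fold, at -0.91. That scaling also moved the median of all probe sets on A to 0.21. Relative to this median Il1b stood at -1.12, but the scaling shifts both nearly alike, so this value is no separate check.

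Il1a, whose product acts through the same receptor and is also held inside cells as a precursor, read -163 in deficient cells and 679 in wild-type cells on B. The wild-type reading lay just under the floor of 690.2, and the deficient one was below 0, so neither a ratio nor a bound was given. A difference in Il1a was thus not measurable at this signal.

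Il1rn, the receptor antagonist, read 13917 in deficient cells and 35236 in wild-type cells on A. The deficient reading was 39.5% of the wild-type one (log2 ratio -1.34), and 35 of the 2949 ratios on A were lower. It stood at 13.4 times the floor in deficient cells and 34.0 times it in wild-type cells. The gene makes secreted and intracellular forms from different first exons, and 1 probe set does not tell these apart.

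Il1r2, the decoy receptor, read 903 in deficient cells and 4770 in wild-type cells on B. The deficient reading was 18.9% of the wild-type one (log2 ratio -2.40), and only 7 of 2954 ratios on B were lower. It was only 1.31 times the floor in deficient cells, against 6.92 times in wild-type cells, so the size of the ratio depends on a dim reading. Under a floor set at the 70th percentile of signal in place of the median, the deficient reading was below the floor and the log2 value became a bound of -1.22.

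Il1r1, the receptor that signals, read 516 in deficient cells and 942 in wild-type cells on A, both under the floor of 1036.5. The receptor arm of the system was thus measured here only through its decoy and through Il1rap.

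**Figure D2:**
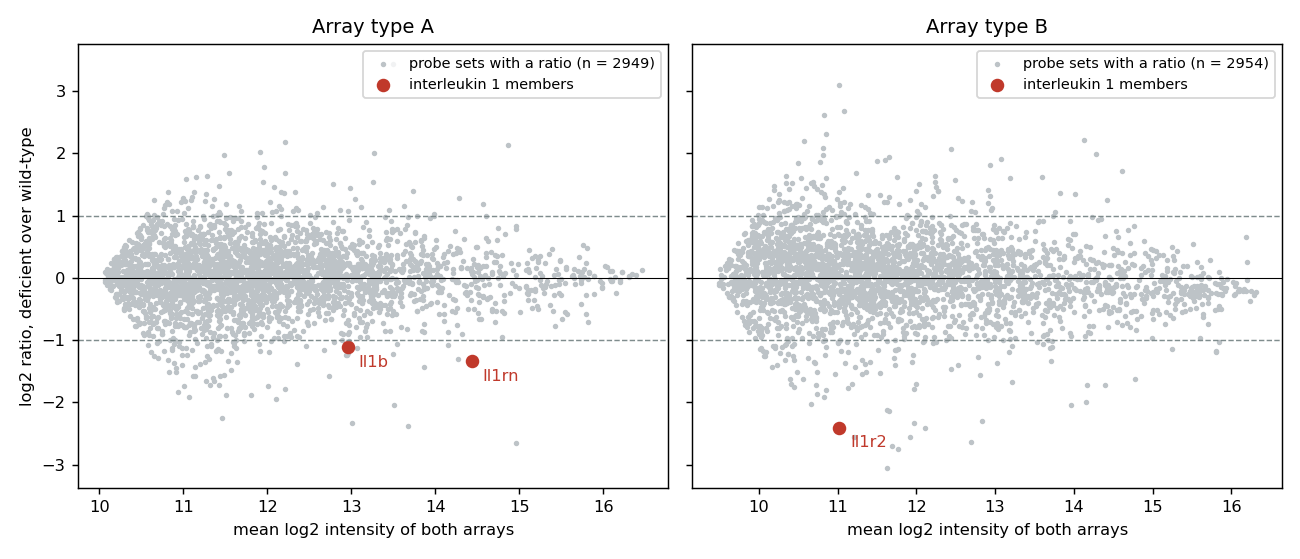
Log2 ratio of deficient over wild-type signal against the mean log2 intensity of both arrays, for every probe set with a ratio on array types A and B (grey) and for the measured interleukin 1 members (red), with dashed lines at 2-fold. Il1b and Il1rn sit among bright probe sets at -1.11 and -1.34, and Il1r2 sits among dim ones at -2.40.

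The antagonist and the decoy were set against the agonist by differences of log2 ratios, since levels of different probe sets cannot be compared. Il1rn was lower than Il1b by a further 0.23 (difference -0.23). Repeat probe sets of 1 gene gave a measurement error of 0.28 for a ratio whose dimmer array was at least 3 times the floor (pooled SD, 215 genes) and 0.47 below that (94 genes), without any spread between mice. As these probe sets were read on the same arrays, this error does not measure repeat hybridisation either. The error of the difference between Il1rn and Il1b was 0.40 by this measure, larger than the difference itself, so a change in the balance of antagonist to agonist was not detectable here. Il1r2 was lower than Il1b by a further 1.29 (difference -1.29, error 0.55) and lower than Il1rn by a further 1.06 (difference -1.06, error 0.55). Both of these differences cross array types, rest on the dim deficient reading of Il1r2 and were not tested. Under the 70th-percentile floor the Il1r2 bound of -1.22 does not place it below Il1rn. Under the other scalings and the lower floor, the difference of Il1rn from Il1b lay between -0.25 and -0.20, and that of Il1r2 from Il1b between -1.52 and -1.14. Only quantile normalisation (-0.25) and loess (-0.20) could move the difference of Il1rn from Il1b, as the other settings cancel within an array type.

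**Figure D3:**
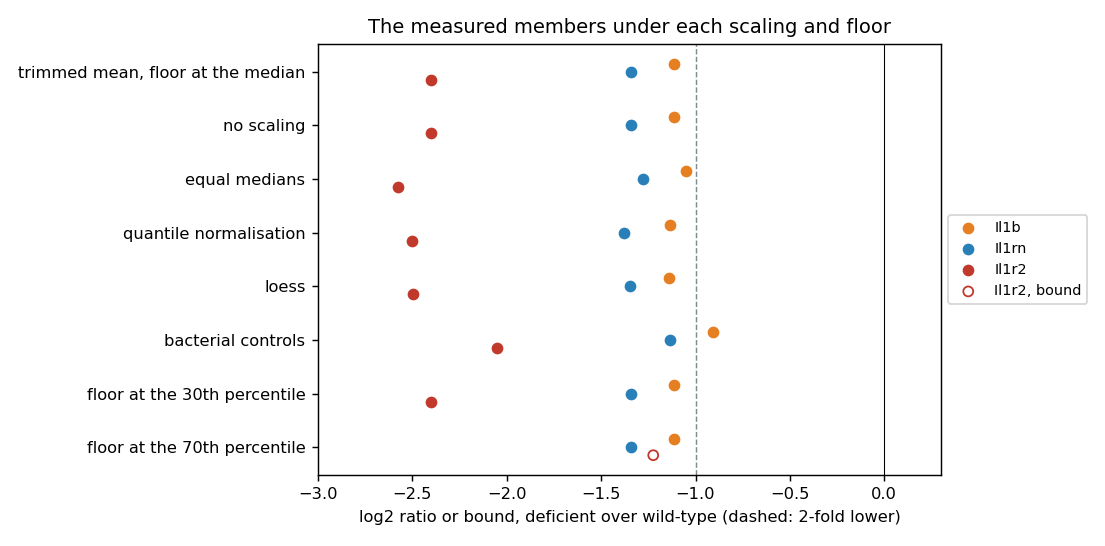
Log2 ratio of deficient over wild-type signal for Il1b, Il1rn and Il1r2 under each scaling and floor, with the reported setting at the top and a dashed line at 2-fold lower. Filled points are ratios and the open point is a bound. Every value lies below 0, Il1b passes the 2-fold line except with bacterial controls (-0.91), and Il1r2 becomes a bound of -1.22 under a 70th-percentile floor.

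The upstream sequences of the 3 measured members are shown because these genes were lower together. They are the 250 bases before annotated starts in the RefSeq promoter table, build GRCm38.p6, written 5′ to 3′ on the gene's strand: Il1b chr2:129371140-129371389 (- strand), Il1rn at its first start chr2:24336610-24336859 (+ strand), Il1rn at its second start chr2:24345041-24345290 (+ strand) and Il1r2 chr1:40085843-40086092 (+ strand). A further Il1rn start, whose window overlaps that of the second, was searched but is not printed. Capitals mark matches to any of 4 motifs.
Il1b: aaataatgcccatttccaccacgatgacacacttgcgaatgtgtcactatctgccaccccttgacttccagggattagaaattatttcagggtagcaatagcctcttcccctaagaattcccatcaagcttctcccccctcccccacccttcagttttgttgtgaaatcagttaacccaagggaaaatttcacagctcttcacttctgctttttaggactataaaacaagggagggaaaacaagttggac
Il1rn, first start: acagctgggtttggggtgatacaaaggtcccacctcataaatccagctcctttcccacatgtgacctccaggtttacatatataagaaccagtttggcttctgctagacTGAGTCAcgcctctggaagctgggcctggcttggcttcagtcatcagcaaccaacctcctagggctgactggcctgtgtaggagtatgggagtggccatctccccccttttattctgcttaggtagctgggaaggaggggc
Il1rn, second start: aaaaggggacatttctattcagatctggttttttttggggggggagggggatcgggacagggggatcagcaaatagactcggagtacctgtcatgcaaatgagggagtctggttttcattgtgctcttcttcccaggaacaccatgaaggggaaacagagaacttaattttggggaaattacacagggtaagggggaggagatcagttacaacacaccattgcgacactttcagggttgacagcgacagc
Il1r2: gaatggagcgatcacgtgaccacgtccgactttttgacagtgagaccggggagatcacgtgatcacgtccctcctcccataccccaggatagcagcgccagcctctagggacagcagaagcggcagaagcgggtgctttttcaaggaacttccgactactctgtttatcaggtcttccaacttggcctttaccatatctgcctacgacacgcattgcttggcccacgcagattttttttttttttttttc
The motifs were searched on both strands of the whole windows, which run 50 bases past the start, and all 5 members had at least 1 window. They were the C/EBP motif TTGCNNAA, which 10.8% of 32851 mouse windows hold, the AP-1 motif TGANTCA (7.81%), the PU.1 motif AGGAAGT (9.35%) and the NF-kappa-B consensus (8.46%). None of the 4 was in the windows of Il1b or Il1r2. The first window of Il1rn held 1 AP-1 match, beginning at -141 from the start. Of the members with no ratio, Il1a had 1 AP-1 match beginning at -12, and Il1r1 had 1 C/EBP match in its first window and 1 NF-kappa-B match in its second. A match or its lack describes these letters in these windows only.

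By distance in the plane of both log2 signals, the named genes nearest to Il1b on A were Rps26, a ribosomal protein gene (distance 0.07, log2 ratio -1.21), and Plcb3, a phospholipase C (0.07, -1.02). Nearest to Il1rn were Csf3r, which encodes the G-CSF receptor (0.23, -1.31), and Lpl, lipoprotein lipase (0.34, -0.91). Nearest to Il1r2 on B were the integrin gene Itga3 (0.29, -2.55) and Alas2, the erythroid enzyme of haem synthesis (0.39, bound of -2.79). The likeness rests on 2 arrays per type.

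Around the members, 0 genes of the receptor's signalling chain passed 2-fold, and 3 of the genes that interleukin 1 is known to induce did, all of them chemokines and all lower. Of all 3749 named genes with a ratio or bound, 4.56% were at least 2-fold lower and 4.16% at least 2-fold higher, and the median log2 ratio was 0.01. Each gene was read by its brightest measured probe set. Of 16 other family ligands and receptors, 3 had a probe set and 0 passed 2-fold, while under a 30th-percentile floor 2 did, Il18 on the higher side (1.05) and Il18r1 on the lower. Counts over all probe sets rose under that floor too. Il1rap, the accessory chain of the signalling receptor, read 1166 in deficient cells and 1621 in wild-type cells (log2 ratio -0.48). Il18, a ligand of the same family, read 1502 in deficient and 725 in wild-type cells, a bound of 0.53, and Il18r1, a chain of its receptor, 419 in deficient and 1182 in wild-type cells, a bound of -0.19.

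Of 20 genes of interleukin 1 maturation and release, 10 had a probe set, 4 a ratio and 0 passed 2-fold (median -0.05). Under the lower floor, which raised counts over all probe sets too, 2 did. Casp1, the protease that matures interleukin 1 beta, was below the floor in both genotypes by either probe set. Capn1, a calpain, read 7218 in deficient and 4210 in wild-type cells (0.78, with 0.25 by its other probe set), while Capn2, whose family cleaves the interleukin 1 alpha precursor, stood at -0.21. S100a13, which takes part in interleukin 1 alpha release, stood at -0.63 and -0.31 by its probe sets.

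Of 39 genes of receptor signalling, 22 had a probe set, 15 a ratio and 0 passed 2-fold, with 7 of the 15 below 0 (median 0.02). Fos, a subunit of AP-1, read 2771 in deficient cells and 4824 in wild-type cells (-0.80), the ratio farthest from 0 in the list by a gene's brightest probe set. Myd88, the adaptor of the receptor, read 7460 in deficient cells and 7839 in wild-type cells (-0.07). The receptor kinase gene Irak1 stood at 0.42, the NF-kappa-B subunit genes Rela and Relb at 0.41 and -0.04, the inhibitor Nfkbia at -0.27 and -0.17 by its probe sets, and Tollip, which restrains the receptor complex, at -0.13. Probe sets of the kinase gene Mapkapk2 disagreed, at 0.43 and 1.28. Only 1 of 3 probe sets of Traf6, the ubiquitin ligase below MyD88, was above the floor (0.64).

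Of 25 genes known to be induced by interleukin 1, 24 had a probe set and 15 a ratio, of which 12 were below 0 (median -0.41, and -0.40 with 3 bounded genes). Lower by 2-fold or more were 3, and 0 were higher, while under the 30th-percentile floor 9 passed 2-fold, among them Mmp3 on the higher side (1.08). That floor raised such counts over all probe sets too, on A from 145 lower and 118 higher to 457 and 356. On B they went from 179 and 234 to 647 and 801, so the 9 say little about this list. Several of the 12 lay within the measurement error of 0, such as Csf3 at -0.15 and Mmp13 at -0.09, and with bacterial controls the median was -0.05. Ccl7 and Ccl2, chemokines for monocytes, read 1099 and 3691 in deficient cells, against 9072 and 18522 in wild-type cells (-3.05 and -2.33). Cxcl2, a chemokine for neutrophils, read 1537 in deficient cells and 6769 in wild-type cells (-2.14). The deficient readings of Ccl7 and Cxcl2 were dim, and under the 70th-percentile floor both became bounds, of -2.15 and -1.73. The acute-phase gene Saa3 stood at -0.23 and -0.21 by its probe sets, Ptges, a prostaglandin E synthase, at -0.72, and Sod2, a mitochondrial superoxide dismutase, at 0.21. Il6 read -29 in deficient cells and 500 in wild-type cells, and neither it nor the 3 probe sets of Ptgs2, the inducible cyclooxygenase, reached the floor.

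Of 19 regulators of interleukin 1 genes, 16 had a probe set and 12 a ratio, with 6 below 0 (median 0.04). The 1 gene past 2-fold was Il10ra, a chain of the receptor for the anti-inflammatory interleukin 10, higher at 6140 in deficient cells against 2947 in wild-type cells (1.06). Spi1, which encodes PU.1, stood at 0.15, Cebpb at 0.25 and Cebpd at -0.38. Il4ra, a receptor chain for interleukin 4, which is known to raise the antagonist and the decoy in myeloid cells, read 3101 in deficient cells and 6072 in wild-type cells (-0.97). Stat6, of the same list, stood at -0.29, and a link of Il4ra to the members was not tested. Zfp36, which encodes an RNA-binding protein that destabilises cytokine mRNA, stood at -0.44.

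**Figure D4:**
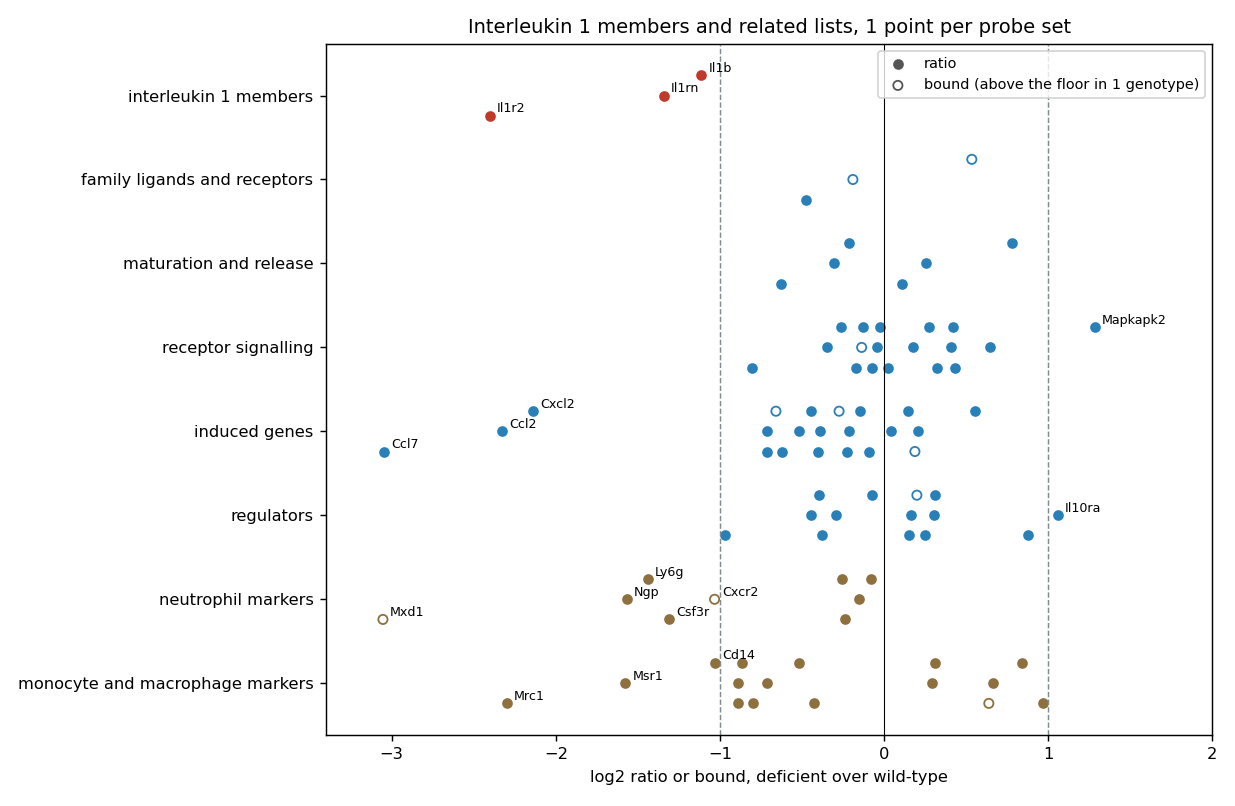
Log2 ratio or bound of deficient over wild-type signal, 1 point per probe set, for the measured interleukin 1 members (red), the pathway lists (blue) and 2 marker lists (brown). Filled points are ratios, open points are bounds against the floor, and dashed lines mark 2-fold. Ccl7, Ccl2 and Cxcl2 lie beyond 2-fold on the lower side, as do Csf3r, Ly6g, Ngp, Mxd1 and Cxcr2 among neutrophil markers. So do Mrc1, Cd14 and 1 probe set of Msr1 among monocyte and macrophage markers. Il10ra and 1 probe set of Mapkapk2 lie beyond 2-fold on the higher side.

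In such bulk samples, fewer cells of a type and less RNA per cell cannot be told apart by signal. By the labels, cytospins held some 60% neutrophils and 30% monocytes in either genotype. Markers of neutrophils and of monocytes were both present. Of 13 neutrophil markers 8 had a probe set, and their summed intensity in deficient cells was 77.1% of wild-type on A (105238 against 136417) and 81.1% on B (77243 against 95242). A few bright probe sets carry these sums, S100a8 with 62899 of the deficient sum on A and the integrin gene Itgb2 with 56635 of that on B. By gene, the median log2 ratio of the neutrophil markers was -0.77, or -1.17 with bounds, and 5 of the 8 were lower by 2-fold or more, counting bounds. S100a8 and S100a9, abundant calcium-binding genes of neutrophils, stood at -0.08 and -0.24, while Csf3r stood at -1.31, Ly6g at -1.44, the granule gene Ngp at -1.57, and Cxcr2, a receptor of neutrophil chemokines, had a bound of -1.03. Cxcr2 and Mxd1 were under the floor in deficient cells only. The deficient readings of Ly6g and Ngp were dim, and under the 70th-percentile floor both became bounds, of -0.94 and -0.58, short of 2-fold. All 12 monocyte and macrophage markers had a probe set, with summed intensity in deficient cells at 86.4% of wild-type on A (158708 against 183792) and 82.4% on B (250437 against 303921). Their median log2 ratio was -0.52, and 2 of the 12 were lower by 2-fold or more and 0 higher. The mannose receptor gene Mrc1 stood at -2.30, the lipopolysaccharide co-receptor gene Cd14 at -1.03 and Adgre1, a macrophage surface marker, at -0.52. Against these, Csf1r stood at 0.84 and Ccr2 at 0.97. Both counts depended on scaling. Cd14 fell short of 2-fold with quantile normalisation (-0.82), loess (-0.84) and bacterial controls (-0.68). Ccr2 passed 2-fold higher with equal medians (1.03) and bacterial controls (1.17), and Csf1r with bacterial controls (1.19). The neutrophil markers with a ratio ran from S100a8 (-0.08), Itgb2 (-0.15) and S100a9 (-0.24) to Csf3r, Ly6g and Ngp (-1.57). Cxcr2 and Mxd1 had bounds of -1.03 and -3.05. Il1b and Il1rn, at log2 ratios of -1.11 and -1.34, lay inside this wide spread. They also lay inside that of the monocyte and macrophage markers, from Mrc1 (-2.30) to Ccr2 (0.97). Il1r2, at -2.40 with a dim deficient reading, lay below every ratio of both marker lists, though not below the Mxd1 bound. The part of cell composition in the members' differences was not tested.

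Among markers of other cells, those of B cells and erythroid cells were above the floor in at least 1 genotype for 6 of 6 and 4 of 4 genes with a probe set. Ighm, the immunoglobulin mu heavy chain, read 18904 in deficient cells and 26759 in wild-type cells by its brightest probe set, and the globin gene Hba-a1 50393 in deficient and 49059 in wild-type cells. Of 8 T and NK cell markers with a probe set 6 were below the floor in both genotypes, as were 3 of 4 eosinophil markers, 4 of 8 mesothelial and fibroblast markers and 2 of 8 mast cell and basophil markers. The B cell list had 5 ratios with a median of -0.11 and the erythroid list 3 with a median of -0.43. Counting bounds, those lower by 2-fold or more were the matrix genes Col3a1 (-1.70) and Sparc (-1.51), the erythroid genes Hbb-b2 (-1.62) and Alas2 (bound of -2.79) and the eotaxin receptor gene Ccr3 (-1.92), with 0 among B cell, T and NK cell or mast cell genes. Col1a1 was not counted, as it was read by a probe set with a ratio on A (-0.19). Its probe set on B disagreed, with a bound of -2.27.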

How the data were processed

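The authors deposited 1 array intensity per probe set, on a linear scale and as whole numbers, from the values themselves. For their software, background correction and scaling, nothing was stated in the labels. Groups came from the sample titles. Genes were named through the platform annotation: of 13069 probe sets besides controls, 7542 had 1 symbol, 224 several and 5303 none, and 7525 matched a gene ID of the RefSeq table on GRCm38.p6. Within an array type, arrays were multiplied to a common mean that ignored the extreme 2% at either end, by factors between 0.999 and 1.001. The floor, ratios and bounds are as given above. Procedures were tested on simulated arrays with known changes in bright probe sets only, so changes in dim probe sets and bounds were not covered. The alternatives were scaling to bacterial controls (9 probe sets), equal medians, no scaling, loess with a span of 0.3, quantile normalisation, floors at the 30th and 70th percentiles, 3-fold, and a mean taken over each gene's measured probe sets. The members and lists were chosen with earlier results of these data known. Named were all members, their 2 nearest genes, Il1rap, Il18, Il18r1, Casp1, Myd88, list genes past 2-fold and the cell-defining markers. Other list genes were chosen after their values were seen. Software was Python 3.11.15 with scipy 1.17.1, pandas 2.3.3, matplotlib 3.10.9, numpy 2.4.6 and statsmodels 0.14.6.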

Additional observations from a re-analysis of the deposited data

How the results depend on the processing

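Il1b, Il1rn and Il1r2 stayed below 0 under all 7 scalings and floors, Il1b between -1.14 and -0.91 and Il1rn between -1.38 and -1.14. Il1r2 lay between -2.58 and -2.05 as a ratio, and under a floor at the 70th percentile it was a bound of -1.22. Il1a gave bounds of -0.07 with equal medians, -0.08 with quantile scaling and -4.28 under a 30th-percentile floor, which lies near 0 intensity, and Il1r1 a ratio of -0.87 with that floor. Bacterial-control scaling moved the median of all probe sets to 0.21 on A and 0.36 on B, and equal medians moved it to -0.14 on B. Relative to these medians, Il1r2 stood at -2.41 and -2.43, which is no separate check, since both scalings shift it and the median nearly alike. Probe sets past 2-fold were 145 lower and 118 higher on A and 179 lower and 234 higher on B, so 44.9% and 56.7% of them were higher. With bacterial controls they were 91 and 214 on A and 100 and 504 on B (70.2% and 83.4% higher), and with equal medians 41.7% were higher on B. Under a 30th-percentile floor they were 457 and 356 on A and 647 and 801 on B, under one at the 70th 34 and 42 on A and 65 and 59 on B, and past 3-fold 33 and 25 on A and 60 and 68 on B. The medians of the maturation, signalling and regulator lists changed sign among the alternatives, and that of the induced genes stayed below 0 (-0.56 to -0.05). Under a 70th-percentile floor the other family genes had no ratio. Under the 30th-percentile floor, genes past 2-fold were 9 among the induced genes, 2 each among the other family genes and the maturation genes, and 3 among the regulators, against 3, 0, 0 and 1 under the reported floor. The causes were not tested. No paired analysis was possible because each genotype had 1 array per type, and for the same reason no array could be left out. Signal near the floor limits Il1a, Il1r1 and the deficient reading of Il1r2. Outside the members it also limits the deficient readings of Ccl7, Cxcl2, Ly6g and Ngp, among others.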
